A study of Mus musculus with 6 samples.

Results

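MARIO joins RNA fragments that were held near each other by protein in living cells into chimeras of the form RNA1–Linker–RNA2. The read pairs described here had a short interspersed element (SINE) at 1 or both ends, that is, a fragment whose annotated type was SINE. They were chosen by this annotation alone, and read pairs with equal coordinates of both fragments were counted as 1. Of 5581375 distinct read pairs in 4 libraries, 154759 had a SINE end. ES-1 held 23462 of 2310134, ES-2 held 33401 of 1241787, ES indirect held 58776 of 1655476 and MEF held 39120 of 373978. SINE ends were grouped by repeat name into B1, B2, B3, B4, ID, MIR and all other names.

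ES-1 and ES-2 were independent assays on E14 embryonic stem cells of strain 129/Ola, grown without feeder cells and with LIF. Both were crosslinked with ultraviolet light of 254 nm and cut with RNase I, to about 1000 nt by the labels of both. The methods give a range of 1000 to 2000 nt for ES-1 and about 1000 nt for ES-2. The assays also differ in how ribosomal RNA was removed, by duplex-specific nuclease for ES-1 and by the GeneRead kit for ES-2. ES indirect came from the same cell line, but was crosslinked with formaldehyde and EGS, sonicated to about 1000 nt and depleted with the nuclease. MEF came from embryonic fibroblasts of strain C57Bl/6, irradiated at 254 nm, cut with RNase I to about 300 nt and depleted with the kit. E14 is 1 established line, so ES-1 and ES-2 differ as assays and not as animals. ES indirect and MEF had 1 library each, and MEF differed from ES-1 in strain, fragment size and depletion as well as in cell type, so these effects cannot be told apart and no test was made between groups. In such bulk libraries, fewer cells with an RNA and less of it per cell cannot be told apart. Where 4 values follow each other without a name they belong to ES-1, ES-2, ES indirect and last MEF, and 3 values leave out MEF. Intervals are 95% Wilson intervals and cover counting error only.

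SINEs are short repeats that spread through the genome by reverse transcription of RNA. Mouse B1 derives from 7SL RNA, and B2 and ID derive from tRNAs. B3 is a relative of B2, B4 joins an ID-like part to a B1-like part, and MIR is an old family shared among mammals. RNA polymerase III transcribes young copies from an internal promoter with an A box and a B box and stops in a run of T, whereas most SINE sequence in RNA is carried inside introns and untranslated regions of genes made by RNA polymerase II. Rodents also make short stable RNAs related to SINEs. 4.5SI RNA resembles B2 and B3, and 4.5SH RNA resembles B1.

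Many fragments named as SINE were short or held linker sequence. The linker was present within 28.1% of the RNA1 fragments named as SINE in ES-1 and 48.1% in ES-2, with 33.1% in ES indirect and 87.9% in MEF, as a piece of at least 10 bases. The SINE fragments that were RNA1 had a median length of 22 nt, 19 nt, 30 nt and 18 nt in the same order. A set of well-placed read pairs, defined after seeing the data, was therefore also used, in which both fragments had at least 20 nt, no such piece and at most 15% mismatches to the mouse genome (mm9) at their stated position. This left 7255 read pairs with a SINE end in ES-1 and 3173 in ES-2, with 30807 in ES indirect and 376 in MEF. MEF thus kept the fewest. Results are given for well-placed read pairs unless all distinct read pairs are named.

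Among the 7 loci named for their counts over all distinct read pairs, 5 matched the linker and are shown first for that reason. Each sequence is written 5′ to 3′ on the strand of the RNA, with coordinates on mm9, and capitals mark the longest run shared with the linker. The linker is that recovered from short fragments of the files (25 nt), which can hold a base beside the designed linker, such as the first capital of the B1_Mur4 locus.

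B1_Mur4 locus (chr8:122429883-122429903, plus strand): ggactcCCTAGTAGCCCATGC
B4A locus (chr6:3794649-3794670, minus strand): CTAGTAGCCCATGCAttctcct
B4 locus (chr5:134525121-134525144, minus strand): GTAGCCCATGCAATGCatgtggaa
ID locus (chrX:130542843-130542859, minus strand): taATGCAATGCtaggaa
B4A locus (chr16:76534747-76534764, minus strand): tTAGCCCATGCAATtatt

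None of these 5 loci lay in a gene. The B1_Mur4 locus held 647, 4721, 4998 and 193 distinct read pairs. The B4A locus on chromosome 6 held 851, 2283, 3543 and 14592. It was the most used SINE locus of MEF. The B4 locus held 1224, 1336, 1871 and 4594, the most of any SINE locus in ES-1. The ID locus held 5, 1475, 76 and 262. The other named loci were the B3 loci described next, with 1100, 525, 1660 and 26 and with 1074, 532, 1591 and 12 distinct read pairs. A linker piece was found in 98.7% to 100% of the fragments at the 5 loci printed above, and in 0.0604% and 0.0623% at the B3 loci.

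The loci that led the well-placed read pairs were of another kind. Those printed next are the B3 locus with most well-placed read pairs in the ES libraries, a near-identical B4A locus and a PB1D10 locus. Capitals mark the last run of T, where transcription by RNA polymerase III can stop.

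B3 locus (chr6:128710092-128710188, minus strand): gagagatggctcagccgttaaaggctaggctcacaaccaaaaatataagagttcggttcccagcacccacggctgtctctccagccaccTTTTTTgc
B4A locus (chr6:128789065-128789169, plus strand): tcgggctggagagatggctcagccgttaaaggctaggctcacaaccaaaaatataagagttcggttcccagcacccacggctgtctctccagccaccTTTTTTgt
PB1D10 locus (chr6:47721991-47722066, minus strand): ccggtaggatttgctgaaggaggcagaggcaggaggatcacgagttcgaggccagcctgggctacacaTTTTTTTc

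The B3 locus held 1009, 347, 1520 and 14 well-placed read pairs. A second B3 locus at chr6:128748876-128748972 has an identical sequence and held 967, 345, 1472 and 8. The B4A locus shared 99.0% of these bases and held 88, 20, 484 and 6. The PB1D10 locus held 54, 32, 194 and 1. The sequence of these 3 loci is that of 4.5SI RNA, and the sequence of the PB1D10 locus is that of the 3′ part of 4.5SH RNA, a match made from background knowledge since the files name neither RNA. Most fragments there differed from mm9 at 1 or more bases. Those without a mismatch were 16.4% and 15.4% at the B3 loci, 31.1% at the B4A locus and 6.76% at the PB1D10 locus. The printed bases are thus those of the genome and not of most fragments. Near-identical copies share reads, so the split between these loci is uncertain. None of them lay in a gene, and the nearest gene to both B3 loci was Klrb1c, a receptor of natural killer cells, at 18314 bp and 9642 bp.

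A B4A locus on chromosome 13 is shown as an exception. It held 199, 75, 39 and 18 well-placed read pairs in ES-1, ES-2, ES indirect and then MEF, more than the B4A locus above in all but ES indirect. The other strand of the same place held 0, 1, 0 and 32, the most of any locus in MEF. Capitals mark bases in 16-base words that recur in fragments named as ribosomal RNA. Nearly the whole locus was made of such words, so by sequence it cannot be told apart from ribosomal RNA.

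B4A locus (chr13:107911780-107911830, plus strand): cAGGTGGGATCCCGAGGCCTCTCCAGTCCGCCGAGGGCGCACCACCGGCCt

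Placing changed which library held the largest SINE share. Over all distinct read pairs, SINE ends were in 1.02% of ES-1 (1.00 to 1.03) and 2.69% of ES-2 (2.66 to 2.72), with 3.55% of ES indirect (3.52 to 3.58) and 10.5% of MEF (10.4 to 10.6). Among well-placed read pairs the shares were 0.426% (0.417 to 0.436), 0.606% (0.586 to 0.628), 2.38% (2.35 to 2.4) and 0.687% (0.621 to 0.760). MEF was thus highest in the first set, and ES indirect in the second. LINE ends were in 2.13% and LTR ends in 0.590% of well-placed read pairs of ES-1, against 5.13% and 3.88% in ES indirect. They were in 3.10% and 0.922% in ES-2 and in 4.39% and 0.976% in MEF. SINE was therefore the least frequent of these repeat classes in all 4 libraries after placing. Between ES-1 and ES-2 the SINE share differed by more than the counting error in both sets.

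**Figure D1:**
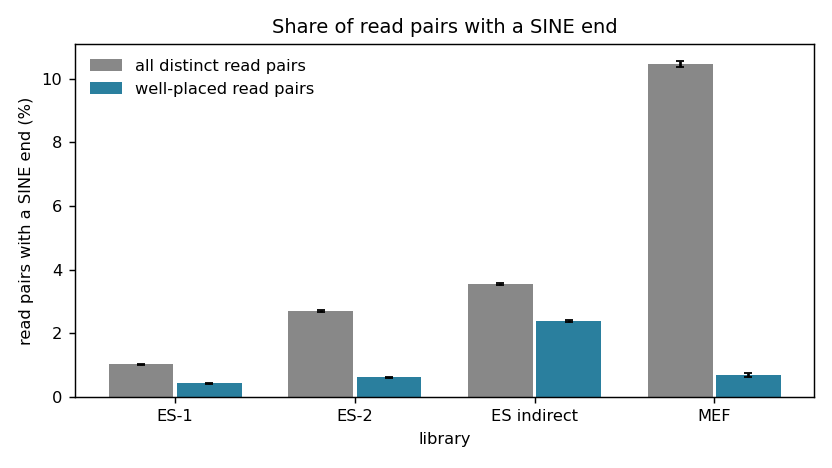
Share of read pairs with a SINE end (percent, vertical axis) in each library, over all distinct read pairs (grey) and over well-placed read pairs (blue). Bars are single libraries and error bars are 95% Wilson intervals. MEF falls from 10.5% to 0.687% and ES indirect from 3.55% to 2.38%.

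B3 led the SINE ends of ES-1 and ES-2 once fragments were placed. B3 names made up 37.7% of well-placed SINE ends in ES-1 (36.6 to 38.8) and 33.5% in ES-2 (31.9 to 35.0), with 22.3% in ES indirect (21.9 to 22.7) and 15.9% in MEF (12.8 to 19.6). In ES indirect the first place was held by B1, at 26.5%, against 20.7% in ES-1 and 21.1% in ES-2. B2 made up 8.23% in ES-1, 7.10% in ES-2 and 13% in ES indirect. These differences lay outside the counting intervals, but 1 library of ES indirect gives no replicate error. Over all read pairs the order was different, with B4 at 25.5%, 28.5%, 22.9% and 64.8% of SINE ends and at 12.6%, 14.3%, 12.4% and 24.7% after placing. Well-placed B4 ends held a 16-base word of ribosomal RNA in 213 of 999 in ES-1 (21.3%), 124 of 500 in ES-2, 51 of 4499 in ES indirect and 49 of 109 in MEF, against 4.13%, 7.51%, 0.319% and 13.4% of all well-placed SINE ends. Without ends that held such a word, B4 was at 10.3%, 11.6%, 12.3% and 15.7%, and B3 at 39.02%, 35.5%, 22.3% and 17.8%. Before placing, 20.7%, 19.7%, 2.77% and 3.34% of SINE ends held one. ID went from 15.4% to 6.30% in ES-2. MIR stayed between 4.24% and 6.10% in every library and both sets.

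Single repeat names moved in the same manner. B3 itself had 4259, 3013, 8905 and 1392 SINE ends in ES-1, ES-2, ES indirect and then MEF, of which 2727, 1007, 6285 and 58 were well placed. B4A had 18868 ends in MEF, of which 97 were well placed. B1_Mur4 kept 57 of 5191 in ES-2, whereas B2_Mm2, a young B2 subfamily, kept 350 of 552 in ES-1 and 2489 of 2946 in ES indirect. Most ends of B2_Mm2, B2_Mm1a and B3 were well placed in ES-1, and a minority of those of the other names given here for that library. ID had 13 well-placed ends of 2235 in ES-2. B1F kept 152 of 792 in ES-1, B2_Mm1a 155 of 225, B3A 269 of 1031, B4 253 of 2580, ID_B1 348 of 1372, MIR 122 of 579 and MIRb 131 of 396.

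**Figure D2:**
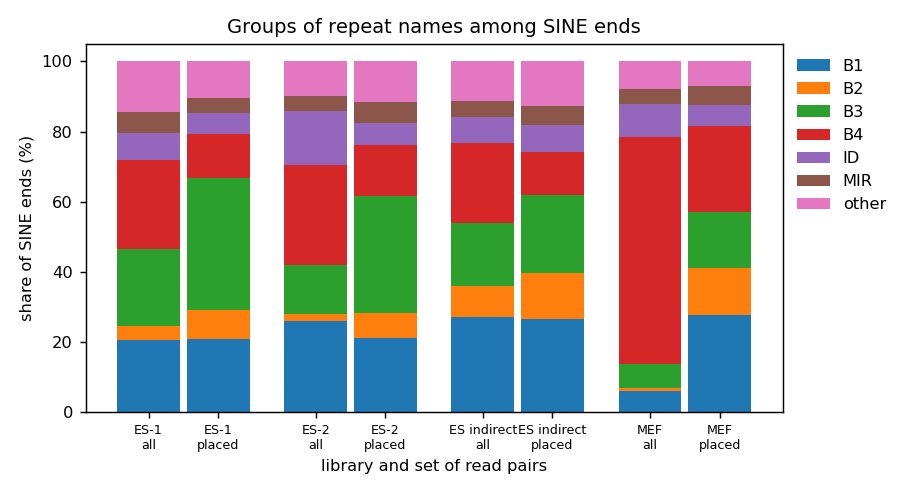
Groups of repeat names as a share of SINE ends (percent, stacked, vertical axis) for all distinct and for well-placed ends of each library. The B4 band of MEF shrinks from 64.8% to 24.7%, and the B3 band of ES-1 widens from 21.9% to 37.7%.

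The 4.5SI-like loci supplied much of the B3 signal. Loci with at least 5 read pairs and at least 90% identity to the B3 locus printed above were collected after the values were seen, which gave 11 loci. They held 2438 of 7255 well-placed SINE read pairs in ES-1 (33.6%) and 836 of 3173 in ES-2 (26.3%), with 4003 of 30807 in ES indirect (13%) and 38 of 376 in MEF (10.1%). The share was thus higher in both ultraviolet ES libraries than in ES indirect. The corresponding 17 loci with the sequence of the PB1D10 locus held 144, 86, 613 and 2 read pairs, or 1.98%, 2.71%, 1.99% and 0.532%. The 4.5SI-like ends were mostly RNA1, the fragment on the 5′ side of the linker, with 2162 of 2440 ends in ES-1 and 2906 of 4022 in ES indirect.

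Fragment ends were measured at the B3 locus and the PB1D10 locus printed above. A fragment that reached past the printed bases was counted as starting or ending at their border. By this count nearly all RNA1 fragments of the B3 locus, and most of the PB1D10 locus, ended at the run of T or past it. At the B3 locus, the 3′ end of RNA1 lay within 2 bases of the run of T in 915 of 918 fragments in ES-1 (99.7%), 316 of 319 in ES-2 (99.1%) and 1105 of 1170 in ES indirect (94.4%). All 11 such fragments of MEF did the same. RNA2 fragments, whose 3′ end is not at the linker, ended there in 44 of 91 in ES-1 and 207 of 351 in ES indirect. The 5′ end lay in the first 15 bases in 0.980% of RNA1 fragments in ES-1 and 0.313% in ES-2, but in 13.4% in ES indirect. At the PB1D10 locus the 3′ end reached the run of T in 43 of 50, 28 of 31 and 175 of 187 RNA1 fragments.

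**Figure D3:**
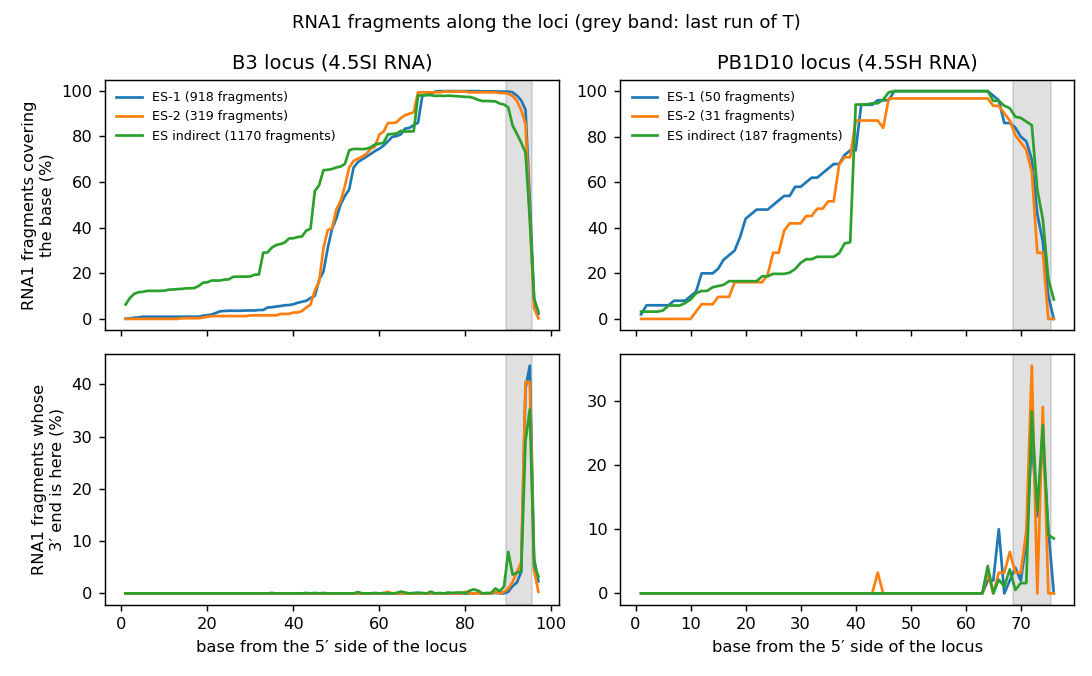
RNA1 fragments along the B3 locus (left, 4.5SI RNA) and the PB1D10 locus (right, 4.5SH RNA) in ES-1, ES-2 and ES indirect, by base from the 5′ side of the locus. The upper panels give the percent of fragments covering a base and the lower panels the percent whose 3′ end lies there, with the run of T in grey. At the B3 locus 99.7%, 99.1% and 94.4% of 3′ ends fall within 2 bases of the grey band, where fragments that reached past the locus were counted at its border.

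The remaining SINE loci were used thinly. The well-placed SINE fragments fell into 4632 loci in ES-1 and 2197 in ES-2, with 27375 in ES indirect and 337 in MEF. Of the ES-1 loci 4411 had a single read pair, as had 2094 of the ES-2 loci, which limits how many could be seen again. Those seen in both ES-1 and ES-2 numbered 108, and 19 were seen in all 4 libraries. The 10 most used loci held 35.6%, 30.01%, 12.9% and 23.4% of the read pairs.

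Many SINE read pairs were local. In well-placed read pairs, both ends lay within 2000 bp on the same chromosome (local) in 31.1% of ES-1 and 31.9% of ES-2, with 50.8% of ES indirect and 31.6% of MEF. Of the local read pairs, 99.7%, 99.9% and 99.9% in the ES libraries had both ends on the same strand of RNA, and 78.2% in MEF. Ends on the same chromosome but farther apart were on the same strand in 49.0%, 55.6%, 55.5% and 35.0%. The strand of RNA was read from the files as stated for RNA1 and reversed for RNA2, since RNA1 in mRNA exons lay on the strand of the gene in 95.9%, 89.0%, 91.0% and 62.6% of cases in the 4 libraries. MEF strands were therefore the least certain.

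Among well-placed contacts that were not local, mRNAs made up a larger part of the partners of SINE ends than of other ends, whereas over all distinct read pairs the order was turned in ES-1, ES-2 and MEF. mRNA was the partner of 9.85% of SINE ends in ES-1 (9.06 to 10.7) against 5.15% of the ends joined to other types, and of 9.98% (8.79 to 11.3) against 5.32% in ES-2. In ES indirect the values were 43.0% (42.3 to 43.8) and 19.8%, and in MEF 24.7% (68 of 275) and 4.86%. The intervals excluded the comparison value in each library. Over all distinct read pairs mRNA was 8.72% against 9.34% in ES-1, 13.5% against 17.1% in ES-2 and 27.3% against 33.7% in MEF, and it was higher beside SINE ends in ES indirect alone, at 34.8% against 24.7%. Ribosomal RNA was the most frequent partner in ES-1 and ES-2, at 63.9% against 62.8% and 68.2% against 71.5%. It was less frequent beside SINE ends than beside other ends in ES indirect (27.2% against 62.1%) and MEF (39.3% against 67.2%). This held over all distinct read pairs in ES indirect, at 37.0% against 53.4%, but was turned in MEF, at 36.8% against 27.2%, and rRNA was then also higher beside SINE ends in ES-1 (63.2% against 57.8%) and ES-2 (62.2% against 54.7%).

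snoRNAs and tRNAs made up a smaller share of the well-placed partners of SINE ends. snoRNAs, which guide the modification of ribosomal and spliceosomal RNA, were 15.3% of partners in ES-1 against 24.6%, 8.25% against 15.2% in ES-2, 1.05% against 2.04% in ES indirect and 22 of 275 (against 19.6%) in MEF. tRNAs were 0.416% against 0.609%, 0.638% against 1.57% and 0.249% against 0.404% in the ES libraries, a difference within the counting interval in ES-1 and outside it in ES-2 and ES indirect. Repeats of other classes were mixed. LTR ends were 0.852% of partners against 0.251% in ES-1 and 1.18% against 0.399% in ES-2, but 2.57% against 3.05% in ES indirect. Simple repeats, among them (TG)n and (CA)n, were 0.397% against 0.0477%, 0.638% against 0.0611% and 0.667% against 0.222%. lincRNA ends were 0.416% against 0.219%, 0.501% against 0.298% and 1.64% against 0.739%. In MEF LTR ends were 5 of 275 (against 0.523%) and lincRNA ends 6 of 275 (against 0.304%). With all distinct read pairs LTR ends lay below the comparison value in ES-1 (0.809% against 0.870%, within the counting interval) and ES-2 (1.30% against 2.03%), as did lincRNA ends (0.282% against 0.383% and 0.642% against 0.776%), and in MEF LTR was at 2.91% against 3.602% and lincRNA at 0.914% against 0.975%, so these orders rest on the choice of read pairs. Simple repeats were then at 0.175% against 0.172% in ES-2. snoRNAs were still below it in the ES libraries, at 17.9% against 21.4%, 9.49% against 10.1% and 1.38% against 1.77%, but not in MEF, at 6.17% against 6.15%. tRNAs were still below it in ES-1 and ES-2, but stood at 0.390% against 0.382% in ES indirect and 0.775% against 0.518% in MEF.

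**Figure D4:**
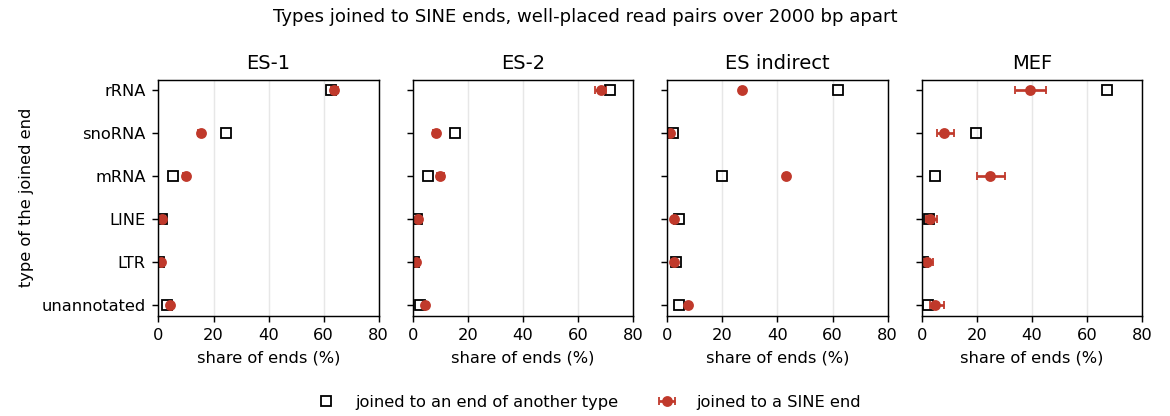
Types of RNA joined to SINE ends (red, with 95% Wilson intervals) and to ends of other types (open squares) as a percent of ends, for well-placed read pairs over 2000 bp apart, 1 panel a library. mRNA lies to the right of its square in every library, and rRNA far to the left of its square in ES indirect and MEF.

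The partners of 4.5SI-like ends were set beside those of other SINE ends. In ES-1, 75.7% of their partners were rRNA and 6.72% mRNA, against 51.7% and 13.3% for SINE ends outside both 4.5S families. In ES-2 the values were 79.0% and 7.07% against 60.6% and 11.9%. In ES indirect the order of mRNA was turned, with 32.2% rRNA and 49.5% mRNA for 4.5SI-like ends against 25.4% and 40.2% for the others. SINE partners were 0.328%, 0.599% and 5.67% for 4.5SI-like ends against 3.21%, 4.95% and 13.3%. These values describe loci chosen after their counts were seen and were not tested.

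By annotated position, introns were the main mRNA region joined to SINE ends. Of mRNA ends joined to a SINE end, 51.0% were intronic in ES-1 (46.6 to 55.3) and 57.8% in ES-2 (51.2 to 64.0), with 86.0% in ES indirect (85.2 to 86.8) and 92.6% in MEF (83.9 to 96.8). mRNA ends joined to other types were intronic in 37.2%, 34.4%, 64.9% and 54.0%. This order was turned over all distinct read pairs in ES-1, at 51.8% against 57.2%, in ES-2, at 56.4% against 63.1%, and in MEF, at 77.7% against 84.0%. Exons outside the UTRs had the opposite order in well-placed read pairs, with 29.3%, 19.6%, 5.50% and 2.94% beside SINE ends against 37.3%, 40.0%, 20.1% and 28.3%. The 3′ UTR held 15.6%, 19.1%, 6.50% and 2.94% of the mRNA ends joined to SINE ends, and the 5′ UTR 4.13%, 3.56%, 1.95% and 1.47%.

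By group, the intronic share in ES-1, ES-2 and ES indirect was 63.6%, 70.3% and 89.3% for B1, and 64.2%, 77.8% and 90.3% for B2. For B3 it was 36.3%, 42.3% and 86.6%, the lowest of the groups in ES-1 and, but for MIR with 1 of 6 ends, in ES-2. The 4.5SI-like loci took part in this, with 47 of 164 mRNA partners in introns in ES-1 (28.7%) and 26 of 59 in ES-2 (44.1%), against 1767 of 1987 in ES indirect (88.9%). The intronic ends lay on the strand of the gene in 87.7% of cases in ES indirect (86.9 to 88.5), against 81.3% for intronic ends joined to other types. In ES-1 this was 58.7% (52.6 to 64.5) against 48.9% and in ES-2 52.7% (44.1 to 61.1) against 48.9%. In MEF it was 37 of 63, against 42.3%. Exonic ends lay on the strand of the gene in 97.3%, 97.7% and 94.8% in the ES libraries, so intronic ends of ES-1 and ES-2 stood apart in this respect. Many intronic ends of ES-1, ES-2 and MEF thus lay on the other strand. They are named by position and were not shown to be mRNA of that gene.

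The genes joined to SINE ends fell into places used again and again and places used once. Dnahc7b, a dynein heavy chain gene, had 90 read pairs to SINE ends in ES-1 and 40 in ES-2, with 36 in ES indirect and 20 in MEF, of which 31, 4, 9 and 0 were well placed. Of these 44 well-placed ends, all in an intron, 43 started in 1 window of 200 bases and 43 held a 16-base word of ribosomal RNA. Cntnap5b, which encodes a neural adhesion protein, had 5, 1, 15 and 0 well-placed ends, and all 21 lay in 1 such window of an intron and held a ribosomal word. Ribosomal words were found in 37 of 258 intron fragments joined to SINE ends over 2000 bp away in ES-1 (14.3%, 10.6 to 19.1) and 10 of 130 in ES-2 (7.69%), with 41 of 6043 in ES indirect (0.678%) and 1 of 63 in MEF. They were in 0 of 147 exon fragments of ES-1, which allows a share of up to 2.04%. Among intron partners of 4.5SI-like ends, 18 of 47 held such a word in ES-1.

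In ES indirect 5 of the genes with most well-placed SINE contacts were of the other kind. Fgfr2, a fibroblast growth factor receptor, had 36 intron ends that fell into 32 windows of 200 bases. Gm20388 had 37 ends in 29 windows, Plekha7 had 23 in 16 windows, Jarid2, a partner of Polycomb complex 2, had 20 in 18 windows, and Msi2, an RNA-binding protein gene, had 19 in 18 windows. None of these held a ribosomal word. Of the Fgfr2 ends, 16 were joined to 4.5SI-like loci, as were 6 of the 37 Gm20388 ends, 7 of the 23 Plekha7 ends, 9 of the 20 Jarid2 ends and 9 of the 19 Msi2 ends, beside 1987 of 6905 mRNA partners of this library in all. These genes were picked for their counts. Iqcg was different, and its 34 ends in ES indirect and 5 in MEF all started in 1 window, as did the 15 Cntnap5b ends of ES indirect given above. In ES-1 and ES-2, Fgfr2 and Msi2 had no well-placed SINE contact and Gm20388 had 1 and 3.

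Well-placed SINE contacts reached 391 protein-coding genes in ES-1 and 210 in ES-2, with 3598 in ES indirect and 61 in MEF. Those reached in both ES-1 and ES-2 numbered 17, with Dnahc7b and Cntnap5b and their ribosomal words among them. The overlap of genes joined to other ends was not measured, so this number shows nothing particular to SINE contacts. Among the genes with most SINE contacts over all read pairs, Suv420h2, a histone methyltransferase gene, had 18, 90, 3 and 66, and Dcun1d4 had 5, 48, 2 and 5, but neither had a well-placed contact in any library. Steap2 had 1, 18, 3 and 23 and none well placed. Fry had 4, 33, 6 and 17, with 2 well placed in ES indirect, and Dffa 5, 9, 11 and 6, with 1. Rpl3, a ribosomal protein gene, kept 7 of 28 in ES-1 and 0 of 22 in ES-2. Il1rapl1 kept 2, 3, 5 and 1 of 8, 21, 13 and 51.

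Among RNAs that are no mRNA, Snora81, a snoRNA, had 54, 8, 1 and 1 well-placed contacts with SINE ends in ES-1, ES-2, ES indirect and then MEF, and Snora73b had 32, 5, 2 and 2. The (CA)n repeats had 27, 13, 153 and 2, and the (TG)n repeats 25, 16, 126 and 1. These snoRNA contacts were thus most numerous in ES-1, and these simple repeat contacts in ES indirect. Malat1, a nuclear lincRNA, had 0, 1, 24 and 1. 7SK had 0 in ES-1 and ES-2 and 3 in ES indirect. 5S rRNA had 1, 2, 2 and 0, Meg3, another lincRNA, 2 in ES indirect, and Y RNA 0 in all. The names Neat1, Xist, Kcnq1ot1, 7SL, 4.5S and BC1 were at 0 ends of any read pair, so contacts under these names could not be counted. 4.5SI RNA is described here by its loci instead.

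SINE–SINE read pairs were frequent and mostly local. Both ends were SINE in 690 of 7255 well-placed read pairs of ES-1 (9.51%) and 318 of 3173 of ES-2 (10.02%), with 5521 of 30807 of ES indirect (17.9%) and 65 of 376 of MEF (17.3%). The MEF share was 9.23% without read pairs whose fragments shared 12 bases. They were local in 93.6%, 89.3%, 84.1% and 72.3% of cases. Local ends lay on the same strand in 644 of 646, 283 of 284 and 4640 of 4643 cases in the ES libraries, with RNA1 upstream of RNA2 in 98.3%, 97.5% and 93.8%, and carried the same repeat name in 65.5%, 56.7% and 66.3%. These read pairs thus mostly joined SINE sequence of 1 strand in the order of transcription. The fragments of same-strand read pairs overlapped in 83 of 644, 25 of 283 and 1083 of 4640. Without overlap, RNA1 was upstream in 561 of 561, 255 of 258 and 3322 of 3557. For RNA structure the paper filtered read pairs within 1 gene to limit intact RNA fragments, which was not done here. Whether these read pairs came from 1 uncut RNA was not tested. In MEF 21 of 47 local SINE–SINE read pairs were on the same strand.

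SINE–SINE contacts that were not local exceeded the number expected from the RNA1 and RNA2 shares of SINE ends. There were 44 in ES-1 against 3.21 expected (13.7 times), 34 in ES-2 against 1.71 (19.9 times), 878 in ES indirect against 82.5 (10.6 times) and 18 in MEF against 0.399 (45.1 times). Over all distinct read pairs the ratios were 1.82, 0.974, 3.21 and 1.10, so in ES-2 the excess was seen in well-placed read pairs only. In ES indirect, B1–B1 gave 198 of the 878 (22.6%), B2–B2 110 (12.5%), B2–B3 106 (12.1%) and B3–B3 72 (8.20%). Fragments of 4 of 44, 2 of 34 and 99 of 878 such read pairs in the ES libraries shared a 12-base word on the strand of the RNA, so the same word was present at both ends in few of them. How often 1 end was placed at the wrong copy of a repeat was not tested.

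MEF read pairs were unlike the others in their sequence. The fragments of 1 read pair shared 12 bases, as stated in the files, in 116 of 376 well-placed read pairs with a SINE end in MEF (30.9%, 26.4 to 35.7), against 0.0965% in ES-1, 0.315% in ES-2 and 0.601% in ES indirect. Such words are complementary on the strands of the RNA as read here, which were the least certain in MEF. Among MEF read pairs that were not local, 90 of 257 with a SINE end shared them (35.02%) and 8.31% of those without one. Of the 18 SINE–SINE read pairs of MEF that were not local, 15 shared such a word. Without these read pairs, SINE was the partner in 3 of 167 contacts of MEF that were not local (1.80%), mRNA in 19.2% and rRNA in 45.5%. What makes these read pairs was not tested. The mRNA share without them was above its comparison value of 4.86%, from which read pairs with shared words were not removed.

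Complementary stretches were also looked for between 4.5SI RNA and the introns joined to it. In ES indirect, 226 of 1767 intron fragments joined to 4.5SI-like ends held 12 bases complementary to 4.5SI (12.8%, 11.3 to 14.4), in 191 genes. Words of 4.5SI itself were in 92 of them (5.21%). Intron fragments joined to ends that were neither SINE nor mRNA held complementary words in 0.800% and words of 4.5SI in 0.845%. Those joined to SINE ends outside both 4.5S families held them in 7.95% and 5.32%, and those joined to 4.5SH-like ends in 1 of 236. Against the whole 4.5SI sequence, complementary words thus exceeded words of the same strand beside 4.5SI-like ends and beside SINE ends outside both families. They did not beside ends neither SINE nor mRNA. Between the 2 joined fragments themselves the order was turned for SINE and intron read pairs of ES indirect that were not local. There 99 of 6043 held complementary words (1.64%) and 289 held the same word (4.78%). The counts were 0 and 9 of 258 in ES-1 and 2 and 3 of 130 in ES-2, but 36 and 0 of 63 in MEF. The most frequent word, TGGTTGTGAGCC, was in 151 of the 1767 fragments (8.55%), in 130 genes, against 2.45% of those joined to other SINE ends and 0.327% of those joined to ends neither SINE nor mRNA. That word was picked for being the most frequent in these 1767 fragments, a choice that favours a higher share there. Intron fragments joined to other SINE ends had a different most frequent complementary word, in 174 of 4040 (4.31%). For ends neither SINE nor mRNA the most frequent word was the same. The complement of the word printed above is in capitals here, at bases 36 to 47 of the B4A locus.

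B4A locus (chr6:128789065-128789169, plus strand): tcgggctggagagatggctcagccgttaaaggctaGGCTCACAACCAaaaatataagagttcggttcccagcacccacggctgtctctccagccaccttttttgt

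B2 repeats also hold bases of this word, so it was not shown to be particular to 4.5SI RNA. Whether the intron words lay in antisense copies of B2 or B3 was not tested. The complementary stretches were mostly short. Complementary words of 14 bases were in 23 fragments (1.30%) and words of 16 bases in 7 (0.396%), fewer than words of the same strand at those lengths (4.81% and 4.13%). In 60 of the 226 (26.5%) the complementary bases lay within the joined 4.5SI fragment itself. ES-1 and ES-2 held no such fragment, with 0 of 47 in ES-1, which allows a share of up to 6.38%, and 0 of 26 in ES-2, which allows up to 11.5%. Words of 4.5SI itself were in 3 of 47 and 8 of 26 (30.8%, 16.5 to 49.99), so the order seen in ES indirect was not seen in these libraries. The pattern was seen in ES indirect first and then measured there, and it has no replicate. In MEF, where strands were the least certain, 5 of 7 held such a word, all within the joined fragment.

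**Figure D5:**
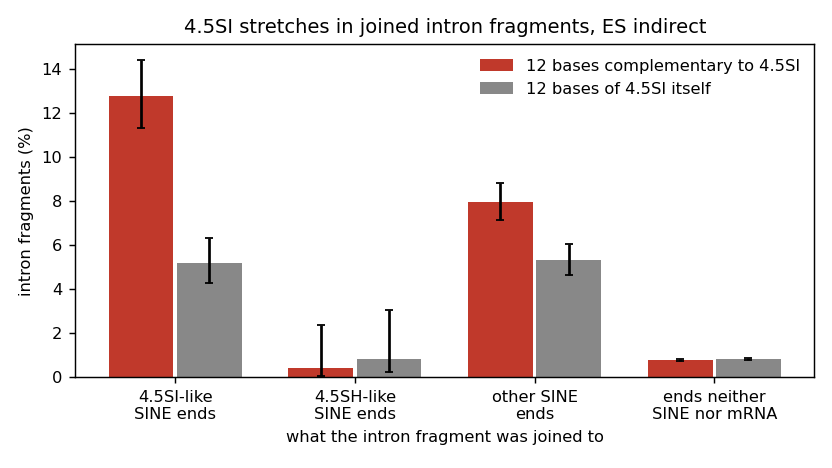
Intron fragments of ES indirect with 12 bases complementary to 4.5SI RNA (red) or of 4.5SI RNA itself (grey), as a percent of intron fragments (vertical axis), by what the fragment was joined to. Error bars are 95% Wilson intervals. Beside 4.5SI-like ends 12.8% held complementary bases, against 7.95% beside SINE ends outside both 4.5S families and 0.800% beside ends neither SINE nor mRNA. With words of 14 bases, not drawn here, complementary bases were in 1.30% and bases of 4.5SI itself in 4.81% beside 4.5SI-like ends.

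The internal promoter was looked for in SINE fragments by the B box motif GNTCNANNC on the strand of the RNA. It was in 8.48%, 8.86%, 10.9% and 3.62% of the SINE fragments that were themselves well placed in ES-1, ES-2, ES indirect and then MEF. tRNA fragments held it in 39.5%, 27.9%, 29.4% and 31.7% and mRNA fragments in 3.83%, 3.2%, 5.12% and 2.69%, at lengths of their own. In ES indirect the SINE value was close to those of LINE fragments (11.8%) and unannotated fragments (9.33%), which were at 3.19% and 3.51% in ES-1 and at 2.13% and 5.88% in ES-2. B2 fragments held it in 144 of 721 in ES-1, 20.6% in ES-2 and 16.5% in ES indirect, fragments of all other names in 18.4%, 24.03% and 18.2%, and B1 in 13.4%, 13.5% and 14.3%. In MEF it was in 2 of 71 B2 fragments and 16 of 150 B1 fragments. B3 held it in 1.68%, 1.5% and 3.12%. The B3 locus sequence printed above has no match to this motif, so the low B3 value was partly fixed by the motif chosen. Fragments with the motif on 1 strand had it on the strand of the RNA in 65.2%, 68.9%, 52.9% and 65.9%. The share of ES indirect pooled groups that differed, with B2 at 42.7% (40.5 to 45.0) and B3 at 42.4%, B1 at 51.9% and all other names at 76.6%. SINE ends lay on the plus strand of the genome in 34.7%, 32.5%, 43.7% and 41.3% of well-placed ends, and in 33.2%, 31.9%, 40.6% and 12.6% of all. The last value was 7.54% in the first flow cell of MEF and 29.0% in the second. The files do not give the strand of the repeat, so the share in sense orientation was not measured.

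Pairs of RNAs with more read pairs than the abundance of both RNAs gives were called by a one-sided Fisher's exact test with Benjamini-Hochberg adjustment, an adjusted p under 0.05 and at least 3 read pairs. Repeats count as 1 RNA by name, and read pairs with the same name at both ends were left out. The read pair was the unit, so the p-values carry no replicate error. Pairs with fewer than 3 read pairs could not be called, so the rate is given over all pairs and over those with at least 3. Over all distinct read pairs, 24 of 4123 pairs with a SINE were called in ES-1 (all pairs 1.09%) and 28 of 6451 in ES-2 (all pairs 0.719%), and no SINE pair was called in both. Of pairs of all types, 228 were called in both, which was 15.4% of those of ES-1 and 29.2% of those of ES-2. In ES-1 and ES-2 merged, 56 of 9486 were called (0.590%, against 0.895% of all pairs), 24 of them seen in both libraries. In ES indirect 295 of 14872 were called (1.98%, against 2.54%) and in MEF 109 of 10605 (1.03%, against 0.842%). Among pairs with at least 3 read pairs, 5.11% of SINE pairs were called in ES-1 (all pairs 12.3%), 5.10% in ES-2 (14.8%) and 27.3% in ES indirect (55.4%). MEF had 9.91% (18.9%), so the higher rate of MEF was turned.

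With well-placed read pairs, 14 of 1127 SINE pairs were called in ES-1 (all pairs 1.48%), 2 of 494 in ES-2 (all pairs 1.14%) and 16 of 1537 in both merged (1.04%, against 1.37%). Of the 16, 5 were seen in both libraries, and again none was called in both, where only 2 had been called in ES-2. Of pairs of all types, 134 were called in both (14.2% and 59.3%). Whether SINE pairs differed in this was not tested. In ES indirect 192 of 7037 were called (2.73%, against 4.52%) and in MEF 2 of 118 (1.69%, against 0.956%). Among pairs with at least 3 read pairs the ultraviolet ES libraries had the opposite order, with 14 of 75 SINE pairs called in ES-1 (18.7%, against 11.6% of all pairs), 2 of 9 in ES-2 (against 16.5%) and 16 of 107 merged (against 11.3%), while ES indirect had 50.8% against 72.9% and MEF 2 of 2. The order of SINE pairs and all pairs thus rested on the pairs counted. SINE–SINE pairs made up 5 of the 16 in the merged ES libraries and 20 of the 192 in ES indirect. By Fisher's exact test at an unadjusted p under 0.05, 550 of 1127 SINE pairs passed in ES-1 and 307 of 494 in ES-2. Most of them had fewer than 3 read pairs. Only observed pairs were tested and the rate over all pairs was not counted, so these numbers show nothing particular to SINE pairs.

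The 5 well-placed pairs called in the merged ES libraries and seen in both were small. B2_Mm2 and tRNA-Asp-GAY were joined by 4 read pairs against 0.452 expected (adjusted p = 0.0131 by Fisher's exact test). B1_Mm–B1_Mus1, B1_Mus1–B4, B2_Mm1a–B2_Mm1t and B2_Mm1t–B2_Mm2 had 3 read pairs each. All of these others were SINE–SINE pairs, between names of 1 group but for B1_Mus1–B4. Of the pairs called over all read pairs, B1_Mur4–SNORA63 had 43 read pairs against 26.9 expected, B4A–Suv420h2 30 against 17.3 and B4–SNORA71 19 against 5.37. None of these had a well-placed read pair. Further such pairs were B4–Suv420h2 with 19, Lx4A–PB1D10 with 8, B1_Mur4–Srsf3 and B4A–Zfp791 with 7, B4A–Egfem1 with 5 and C-rich–PB1D10 with 4. Only B3–Huwe1, a pair of 4 read pairs with a ubiquitin ligase gene, had well-placed read pairs among these 10, with 3 of 4.

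In ES indirect most of the largest called pairs, all between different names, joined other SINE names to 4.5SI-like loci. Read pairs with the same name at both ends could not be called. Among those that were well placed and not local, B2_Mm1a–B2_Mm1a had 42 and B3–B3 had 41. B2_Mm2–B3 had 53 well-placed read pairs against 17.4 expected (adjusted p = 1.7e-10 by Fisher's exact test), and 45 of them had an end in a 4.5SI-like locus. B2_Mm1a–B3 had 28 against 13.1 (26 with such an end), B3–B4 had 20 against 6.08 (19) and B3–B3A had 18 against 4.92 (16). In this library 4022 well-placed ends of any name lay in 4.5SI-like loci, beside 6285 well-placed ends named B3. Whether these pairs held more of such ends than B3 ends at large was not tested. B1_Mus1–B1_Mus2 had 30 against 8.27, with 0 such ends and 27 on different chromosomes. Over all read pairs Lx8–B4A with 36 and Lx4B–B1_Mur4 with 25 were also among the largest. In MEF the called pairs GA-rich–B4A with 41, B4A–tRNA-Gly-GGY with 39, RLTR1B-int–B4A and GC_rich–B1F with 16 each and B4A–Col1a1 with 14, the last a collagen gene of fibroblasts, had no well-placed read pair. The 2 well-placed pairs called in MEF were B4A–Iqcg with 5 and B1_Mus1–B1_Mus2 with 4.

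The cell labels were checked by exonic read pairs of marker genes. The 10 markers of ES cells summed to 774 in ES-1 and 354 in ES-2, with 909 in ES indirect and 15 in MEF. The 10 fibroblast markers summed to 615, 252, 277 and 477. In ES-1 and ES-2 most of the fibroblast counts came from Fn1, with 534 and 220, while the collagens Col1a1, Col1a2 and Col3a1 had 6, 9 and 0 in ES-1 and 4, 3 and 0 in ES-2. In MEF, the library with the fewest read pairs, they had 179, 113 and 44. Fn1, Sparc, Thy1 and Vim had 72, 11, 2 and 19 in MEF, below their raw counts in ES-1 (Sparc 32, Thy1 8 and Vim 20). Vim had 5 in ES-2 and 8 in ES indirect. These counts were not scaled to library size, which was 373978 read pairs in MEF and 2310134 in ES-1. The markers of ES cells and the collagens were thus as labelled, and these 4 fibroblast genes did not set MEF apart from ES-1 by raw count.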

How the data were processed

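MARIO read pairs of 4 mouse libraries (ES-1 and ES-2, then ES indirect, then MEF) were used. 2 brain samples were not used here. In the files deposited by the authors each line is 1 read pair, with the position, strand, sequence, RNA type, name and region of both fragments. The deposited values are coordinates, with no measured quantity beside them. Per the methods, the authors removed duplicates by position and random barcode, split molecules at the linker and kept uniquely mapped fragments (mm9). The submitters' processing notes name TopHat2 2.1.1. The files held 3230403, 1312314, 3302146 and 474526 read pairs in that order, of which 28812, 35687, 76570 and 54902 had a SINE end. Equal coordinates of both fragments were collapsed here.

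Fragments were set against mm9 with pysam 0.24.0, and loci were compared with edlib 1.3.9.post1. SINE fragments overlapping on 1 strand were merged to loci. Pairs were tested with scipy 1.17.1, and the test was tried on simulated data. Pair tests left out ribosomal and unannotated ends, ends within 2000 bp and read pairs with the same RNA name at both ends. Expected SINE–SINE numbers are products of the RNA1 and RNA2 shares. For called pairs the expected number was computed otherwise. It was the product of the read pairs of both RNAs, counted at either end, divided by the read pairs tested. The 2 kinds of expected number are therefore not on the same scale. Where a count is 0, the limit is 3 counts of the total. Genes, pairs and loci were named by the number of read pairs over ES-1 and ES-2 (the 2 leading names of each group, the 10 leading genes, other RNAs and called pairs, the 6 leading loci) and in ES indirect and MEF (5 pairs, 3 loci). 1 locus so named is not reported here. The members and lists were chosen with earlier results of these data known. The set of well-placed read pairs, the 4.5S families the MEF set without shared words and the set without ribosomal words were chosen after seeing the data.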

Additional observations from a re-analysis of the deposited data

How the results depend on the processing

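The mean SINE share of ES-1 and ES-2, 1.85% (SD 1.18), became 0.516% with well-placed read pairs and 4.06% of read pairs with no ribosomal end, and it was 1.02% to 2.69% when either library was left out. The SINE–SINE share, 2.24% (SD 1.20), became 4.59% without linker pieces and short fragments, 4.07% with both fragments at the stated place, 9.77% with well-placed read pairs and 0.456% without local read pairs (1.39% to 3.09% by leaving out a library). The intronic share, 54.1%, became 47.7% without linker pieces and 48.6% with both fragments at the stated place (51.8% to 56.4% by leaving out a library). The B1 share ranged from 20.5% to 25.9% by leaving out a library. The share on the plus strand, 32.5% (SD 0.931), was 31.2%, 29.6% and 33.6% without linker pieces, at the stated place and well placed, and 33.8% and 31.6% in the first and the second flow cell (31.9% to 33.2% by leaving out a library). It replaced the planned share in sense orientation, since the strand of the repeat is not given in the files. Single minus-strand loci with many read pairs weigh on it, so it shows no skew across SINE loci at large. In MEF the first and the second flow cell gave 11.6% and 7.87% for the SINE share, 4.05% and 11.9% for B1, 1.14% and 3.44% for SINE–SINE, 71.9% and 86.4% for introns and 7.54% and 29.0% for the plus strand. The 56 called SINE pairs became 302 when every line was counted, 26 when starts within 10 bp were collapsed, 27 without linker pieces, 27 at the stated place, 16 well placed, 22 and 33 in single flow cells, 7 at 5 or more read pairs and an adjusted p under 0.01, and 24 to 28 by leaving out a library. Comparisons of SINE ends with other ends changed direction between all and well-placed read pairs for mRNA partners in ES-1, ES-2 and MEF, for rRNA partners in ES-2 and MEF, for LTR and lincRNA partners and the intronic share in ES-1, ES-2 and MEF, for tRNA partners in ES indirect and MEF and for snoRNA partners in MEF. The cause was not tested. No paired analysis was possible because only the ES group had more than 1 library. Placing left 376 of 39120 SINE read pairs in MEF, which limits its well-placed values.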
